A study of Mus musculus with 10 samples.

Results

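Transcripts of 10 Kruppel-like factor (KLF) genes, Klf2, Klf3, Klf4, Klf5, Klf6, Klf7, Klf9, Klf10, Klf11 and Klf13, were followed in primary mouse endothelial cells of the lymphatic type (LECs), which form the inner wall of lymphatic vessels. The genes were taken by symbol from a table of 16251 genes, and all 10 had a row and passed the filter on low counts that left 12161 genes for testing. Of the 10 messenger RNA libraries, 5 were labelled control and 5 Vegfr2 siRNA, in which a small interfering RNA, delivered at 50 nM with the CALNP RNAi reagent, was directed at Vegfr2, the VEGF receptor encoded by Kdr, and RNA was taken at 48 h. The labels name no genetic alteration, strain or age of donor, and a single treatment tag, siRNA knockdown, is shared by both groups, so whether control cells received another siRNA is not known. Nothing states that replicates were separate cultures, so the p-values rest on the spread among these 10 libraries alone, and that spread may be technical.

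KLF proteins are transcription factors that bind GC-rich and CACCC-type DNA through zinc fingers at their carboxyl end, and they differ in the rest of the protein. One branch, with KLF2, KLF4, KLF5, KLF6 and KLF7, mostly activates transcription. Another, with KLF3, KLF8 and KLF12, recruits the corepressor CtBP, and the remaining branch, with KLF9, KLF10, KLF11, KLF13 and KLF16, recruits the corepressor Sin3A. In endothelium KLF2 and KLF4 are best known as factors induced by fluid flow through the kinases MEK5 and ERK5 and the MEF2 factors, and they raise anticoagulant and vasoprotective genes and restrain inflammatory ones.

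The libraries held 17946483 to 18239260 estimated counts. Kdr ran from 1259 to 1431 CPM (counts per 1000000 of the scaled library size) in control and from 166.6 to 200.5 CPM in siRNA libraries, and fell by 86.0%. The LEC markers Prox1 and Flt4 stood at 487 ± 17.1 and 2967 ± 114 CPM in control cells (SD, n = 5). Genes listed as blood endothelial had uneven levels, with Emcn at 616, Plvap at 315, Notch4 at 144.5 and Flt1 at 139.5 CPM in control. Nrp1 (14.1 CPM in control) and Sox17 (3.07) of the same list were lower, and Vwf (0.579) and Aplnr (0.0891) were under the filter. The 8 genes of that list summed to 1211 to 1253 CPM in control and 940 to 975 CPM in siRNA libraries. Of the 6 tested, 1 rose, 3 fell and 2 did not pass (66.7% called, against 71.3% of all tested genes). Markers of other cell types gave mixed values. Of the 8 myeloid genes with a row, Spi1, Itgam, Cd74 and Csf1r had at most 6 counts over the libraries of a group, while Cd14 (92.3 CPM in control), Mrc1 (72.5), Cd68 (44.7) and Fcer1g (9.26) were present. Only these last 4 were tested, and all were called lower, as were 35.2% of all tested genes. Whether myeloid cells were present was not tested. Ptprc, Adgre1, Lyz2 and Tyrobp of the myeloid list had no row under those symbols. The summed level of the myeloid list ran from 214 to 225 CPM in control and from 132 to 150 CPM in siRNA libraries. Of the 5 epithelial genes with a row, Epcam, Cdh1 and Krt8 had at most 5 counts over a group, while Krt18 rose from 1.67 to 8.22 CPM and Krt10 from 1.14 to 1.82 CPM, and the sum went from 2.28 to 3.25 CPM in control to 9.74 to 10.5 CPM in siRNA libraries. The 2 adipocyte list genes with a row, Fabp4 and Pparg, summed to 322 to 354 CPM in control and 207 to 229 CPM in siRNA libraries. Both were called lower, as were 35.2% of all tested genes. Adipoq, Plin1, Lep and Cfd of that list had no row, nor had Krt1, Krt5 and Krt14 of the epithelial list. The 10 fibroblast and mural genes summed to 11.8 to 17.0 and 13.1 to 15.0 CPM. The summed level of 10 general endothelial genes also differed, at 5899 to 6106 against 4819 to 5025 CPM. The part of these markers in the KLF values was not tested. In bulk RNA, fewer cells of a type and less RNA per cell cannot be told apart.

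The KLF genes moved little after the siRNA, and in both directions. By edgeR's quasi-likelihood test, with a threshold of 0.05 on p-values adjusted over all tested genes by the Benjamini-Hochberg method, 4 of the 10 rose (Klf6, Klf3, Klf13 and Klf2), 2 fell (Klf9 and Klf10) and 4 did not pass (Klf4, Klf5, Klf7 and Klf11). Over all tested genes 71.3% were called, 36.1% higher and 35.2% lower, and 60.0% of the KLF genes were. The median size of the log2 fold change was 0.12 over the 10 genes and 0.22 over all tested genes, and 8 of the 10 changed by less than the median gene. The libraries of the groups did not overlap for 3 of them, Klf6, Klf3 and Klf9, and for 57.0% of all tested genes. Against a fold of 1.5 (edgeR's glmTreat), 0 of the 10 passed at an adjusted p under 0.05. Of all tested genes 8.56% passed at that threshold, and 0 of 10 is near that share. At an unadjusted p under 0.05, 0 of the 10 passed as well. The 95% interval of the fold change lay within 1.5-fold either way for 9 of the 10, the exception being the scarce Klf5.

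**Figure D1:**
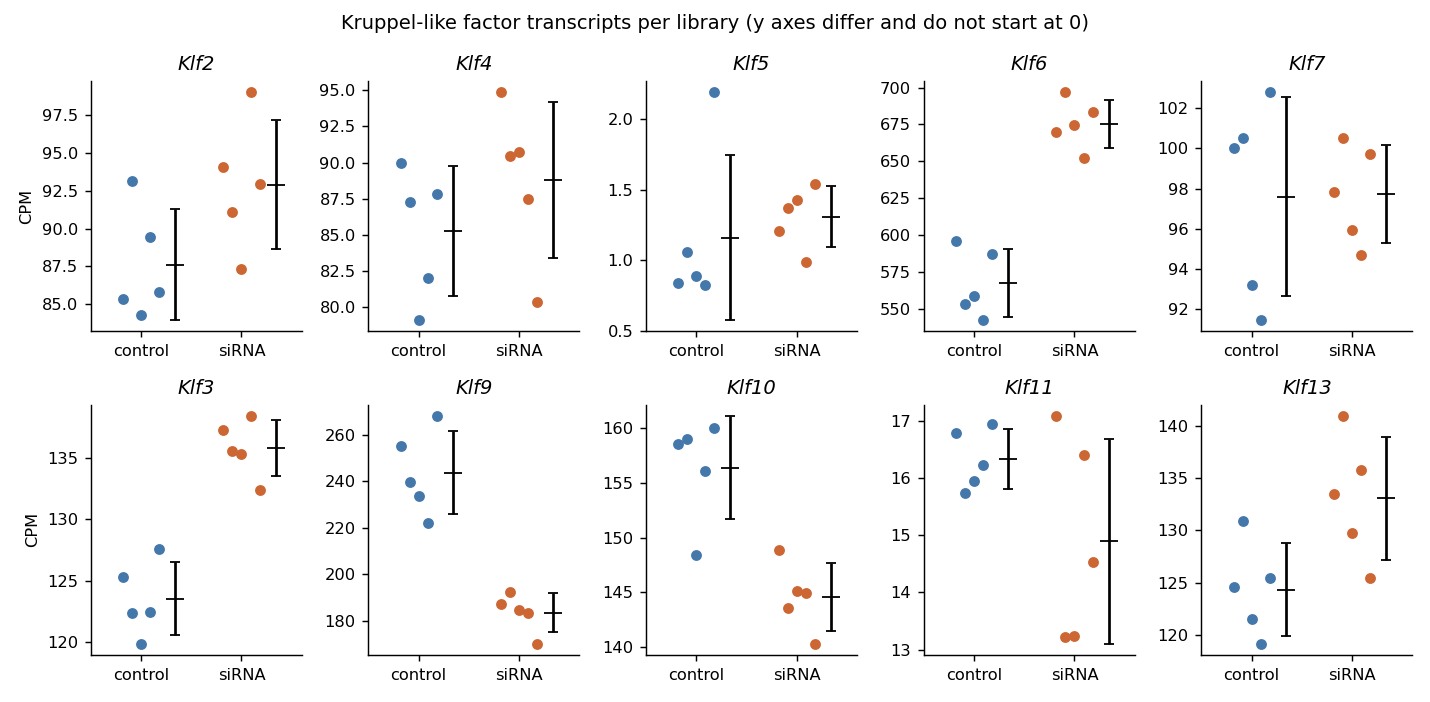
Level of each of the 10 KLF genes in CPM (y axes, which differ and do not start at 0) in every control and siRNA library (points), with the mean and SD of each group (bars, n = 5). The groups are apart for Klf6, Klf3 and Klf9 and share part of their range for the other 7 genes.

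The promoters of 4 members are shown first: those of the flow-responsive pair Klf2 and Klf4, and those of the members with the largest rise and fall among the abundant ones, Klf6 and Klf9. Each is the stretch of 250 bases before the RefSeq transcript start (build GRCm38.p6), 5′ to 3′ on the gene's strand, with capitals marking matches to the GC box (GGGCGG) and the KLF box (CACCC) on either strand, the motifs that the family itself can bind. They lie at chr8:72318812-72319061 (plus strand, Klf2), chr4:55532476-55532725 (minus strand, Klf4), chr13:5861239-5861488 (plus strand, Klf6) and chr19:23140976-23141225 (plus strand, Klf9).
Klf2: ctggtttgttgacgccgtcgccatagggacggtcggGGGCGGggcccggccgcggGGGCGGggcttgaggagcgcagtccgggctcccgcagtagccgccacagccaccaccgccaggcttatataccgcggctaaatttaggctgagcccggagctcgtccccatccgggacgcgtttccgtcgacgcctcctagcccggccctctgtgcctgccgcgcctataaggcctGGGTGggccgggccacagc
Klf4: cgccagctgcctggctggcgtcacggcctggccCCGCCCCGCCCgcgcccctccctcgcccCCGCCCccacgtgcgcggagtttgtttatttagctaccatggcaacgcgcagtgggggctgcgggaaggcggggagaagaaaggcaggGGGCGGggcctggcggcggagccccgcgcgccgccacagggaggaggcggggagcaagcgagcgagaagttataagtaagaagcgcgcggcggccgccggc
Klf6: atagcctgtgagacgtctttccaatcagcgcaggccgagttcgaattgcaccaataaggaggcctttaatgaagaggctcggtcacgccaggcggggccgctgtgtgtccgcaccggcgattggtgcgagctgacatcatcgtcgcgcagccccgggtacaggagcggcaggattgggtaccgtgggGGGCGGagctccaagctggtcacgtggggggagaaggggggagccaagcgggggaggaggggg
Klf9: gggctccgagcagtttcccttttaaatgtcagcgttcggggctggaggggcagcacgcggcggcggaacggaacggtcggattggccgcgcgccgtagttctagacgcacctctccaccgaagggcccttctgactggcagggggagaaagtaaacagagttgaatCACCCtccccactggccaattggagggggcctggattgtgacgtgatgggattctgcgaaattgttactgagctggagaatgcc

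The windows differ in how many of these boxes they hold. Klf4 has 4 GC boxes and 0 KLF boxes, Klf2 has 2 and 1, Klf6 has 1 and 0, and Klf9 has 0 and 1. Of the other members with a RefSeq window, Klf3 has the most, 6 GC boxes and 5 KLF boxes, while Klf11 has 4 and 0, Klf13 3 and 1 and Klf7 1 and 3. Neighbouring GC boxes share a base or more in some windows, as in Klf4 and Klf11. A GC box was present in 32.74% and a KLF box in 52.01% of all 32851 RefSeq windows of this length. The 8 KLF windows had a median GC content of 71.4%, against 52.4% over all windows. Klf5 and Klf10 had no window in the table used.

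Motifs of other factors were searched in the same windows, on both strands. The sequence CTAAATTTAG in the Klf2 window, 118 to 109 bases before the start, matches the MEF2 motif, which 2.92% of all windows hold and no other of the 8 KLF windows does. The Klf9 window holds an AP-1 motif (TGANTCA; 6.75% of all windows) 89 to 83 bases and a FOX motif (TGTTTAC; 3.17%) 100 to 94 bases before the start. The AP-1 match overlaps the KLF box of that window. An E-box (CACGTG; 6.02%) is present in the Klf4, Klf6 and Klf11 windows, and Klf11 holds 2 matches to the SMAD motif GGCGCC (9.59%). The CArG box of SRF (1.47% of all windows), the CRE (TGACGTCA; 1.55%), the TATA box (TATAAA; 12.37%) and the palindromic glucocorticoid element (0.39%) had no match in the 8 windows. A match is a string of letters and no evidence of binding.

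**Figure D2:**
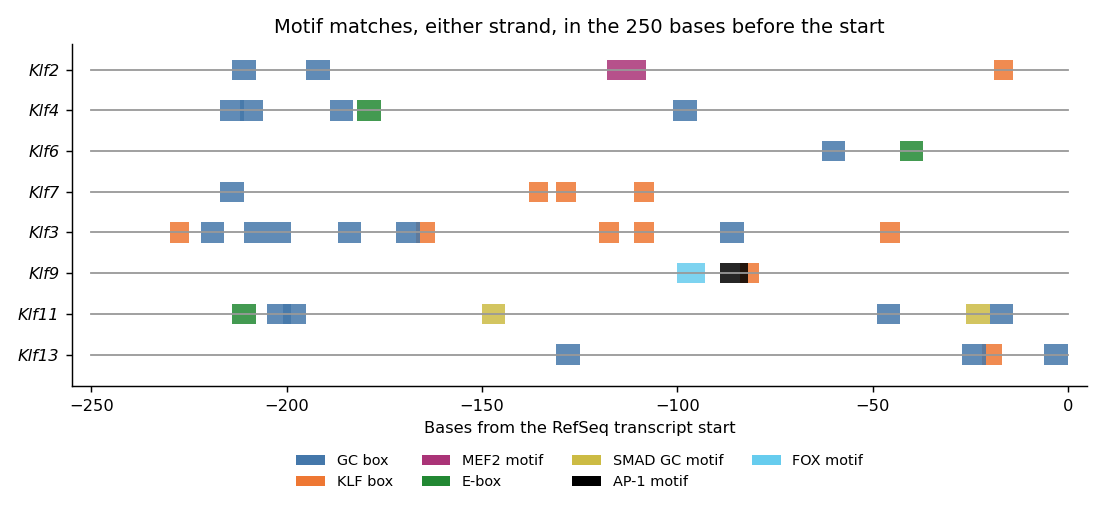
Position of motif matches on either strand (coloured blocks) along the 250 bases before the transcript start (x axis, bases) for the 8 KLF genes with a RefSeq window. The MEF2 match appears in Klf2 alone, and GC boxes in all of the 8 except Klf9.

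Klf6, a factor of wound and injury responses, was the most abundant member and rose (Entrez gene 23849, chromosome 13, 5861489 to 5870393). By replicate number, control libraries held 596, 553, 559, 543 and 587 CPM, and siRNA libraries 669.7, 697, 675, 652 and 683 CPM. Every siRNA library was above every control library. The rise was 19.0%, a log2 fold change of 0.25 (SE 0.025, edgeR adjusted p = 8.83e-12), and 44.7% of all tested genes changed by more.

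Klf2 and Klf4, the flow-responsive pair, were nearly level between the groups. Klf2 (Entrez gene 16598, chromosome 8, 72319062 to 72321654) stood at 85.4, 93.2, 84.3, 89.4 and 85.8 CPM in control and at 94.1, 91.1, 87.3, 99.0 and 92.9 CPM in siRNA libraries. The ranges overlapped, with 2 of 5 siRNA libraries above all controls. The rise of 6.02% passed the test (log2 fold change 0.08, SE 0.033, 95% interval 0.02 to 0.15, edgeR adjusted p = 0.021). That call was not stable: it was lost with upper-quartile factors (adjusted p = 0.0695), with DESeq2 (0.0511), and without control replicate 1 (0.0517), control replicate 3 (0.0642) or siRNA replicate 4 (0.105), and permuting the group labels exactly (two-sided, on log2 of CPM plus 0.5) gave p = 0.0714.

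Klf4 (Entrez gene 16600, chromosome 4, 55527137 to 55532475) stood at 90.0, 87.3, 79.1, 82.0 and 87.8 CPM in control and at 94.8, 90.4, 90.7, 87.5 and 80.3 CPM in siRNA libraries. The ranges overlapped, with 3 of 5 siRNA libraries above all controls and siRNA replicate 5 the lowest of its group. The fold change was 1.04 with a 95% interval of 0.985 to 1.101 (edgeR adjusted p = 0.186). Without siRNA replicate 5 Klf4 passed the threshold (log2 fold change 0.09, adjusted p = 0.0184).

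The remaining activators were Klf7 and Klf5. Klf7, known from neuronal and adipose tissue (Entrez gene 93691, chromosome 1, 64029448 to 64122345), ran from 91.4 to 103 CPM in control and from 94.7 to 101 CPM in siRNA libraries, with a fold change of 1.00 (95% interval 0.958 to 1.05, edgeR adjusted p = 0.953). Its exons share 39.4% of their bases with genes on the opposite strand, and no strand setting is stated. Its counts were whole numbers in all 10 libraries. How far reads of the opposite-strand genes enter its level is not known. Klf5, a factor of epithelial and smooth muscle cells (Entrez gene 12224, chromosome 14, 99298691 to 99313412), was scarce, with 104 counts in all control libraries together and 119 in all siRNA libraries. Control replicate 5 held 2.19 CPM and the other control libraries 0.828 to 1.06 CPM, and the siRNA libraries ran from 0.987 to 1.54 CPM. The fold change of 1.13 had a wide 95% interval of 0.813 to 1.56 (edgeR adjusted p = 0.516), and without control replicate 5 the gene passed the threshold at a log2 fold change of 0.53 (adjusted p = 0.0294).

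Klf3, the member that works through CtBP (Entrez gene 16599, chromosome 5, 64803521 to 64832901), rose by a small and even amount. It stood at 125, 122, 119.9, 123 and 128 CPM in control and at 137, 136, 135, 138 and 132 CPM in siRNA libraries, with no overlap. The rise was 9.93% (log2 fold change 0.14, SE 0.027, edgeR adjusted p = 1.63e-05). Its counts were fractional in all 10 libraries, so some of its reads were divided between genes.

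In the Sin3A-recruiting branch, Klf9 had the largest change of the 10 genes. Klf9, a factor induced by glucocorticoid and thyroid hormone (Entrez gene 16601, chromosome 19, 23141226 to 23168129), stood at 255, 239.6, 234, 222 and 268 CPM in control and at 187, 192, 185, 183 and 170.1 CPM in siRNA libraries. Every siRNA library was below every control library, and the lowest control and highest siRNA library were 222 and 192 CPM. Klf9 fell by 24.7% (log2 fold change −0.41, SE 0.052, edgeR adjusted p = 3.22e-05), and 25.4% of all tested genes changed by more. Its control libraries varied more than those of the other abundant members, with a coefficient of variation of 7.42%.

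Klf10, which is induced early by TGF-beta (Entrez gene 21847, chromosome 15, 38291464 to 38300711), fell slightly. It stood at 159, 159, 148, 156 and 160.0 CPM in control and at 149, 144, 145, 145 and 140.3 CPM in siRNA libraries. Of the siRNA libraries 4 lay below all controls, and the ranges met between control replicate 3 and siRNA replicate 1. Its level fell by 7.56% (log2 fold change −0.11, SE 0.027, edgeR adjusted p = 0.000228).

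Klf11, the closest relative of Klf10 (Entrez gene 194655, chromosome 12, 24651371 to 24662782), ran from 15.7 to 16.9 CPM in control and more widely, from 13.2 to 17.1 CPM, in siRNA libraries. Its fold change of 0.912 had a 95% interval of 0.833 to 0.999 and did not pass after adjustment (edgeR adjusted p = 0.0661). It passed with upper-quartile factors (adjusted p = 0.0417), without siRNA replicate 1 (0.012) and without siRNA replicate 4 (0.0284), the 2 highest libraries of its group. Klf13, known from T cells and heart (Entrez gene 50794, chromosome 7, 63886351 to 63938915), ran from 119 to 131 CPM in control and from 125 to 141 CPM in siRNA libraries. It rose by 7.02% (log2 fold change 0.10, SE 0.030, edgeR adjusted p = 0.00369), with 3 of 5 siRNA libraries above all controls.

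**Figure D3:**
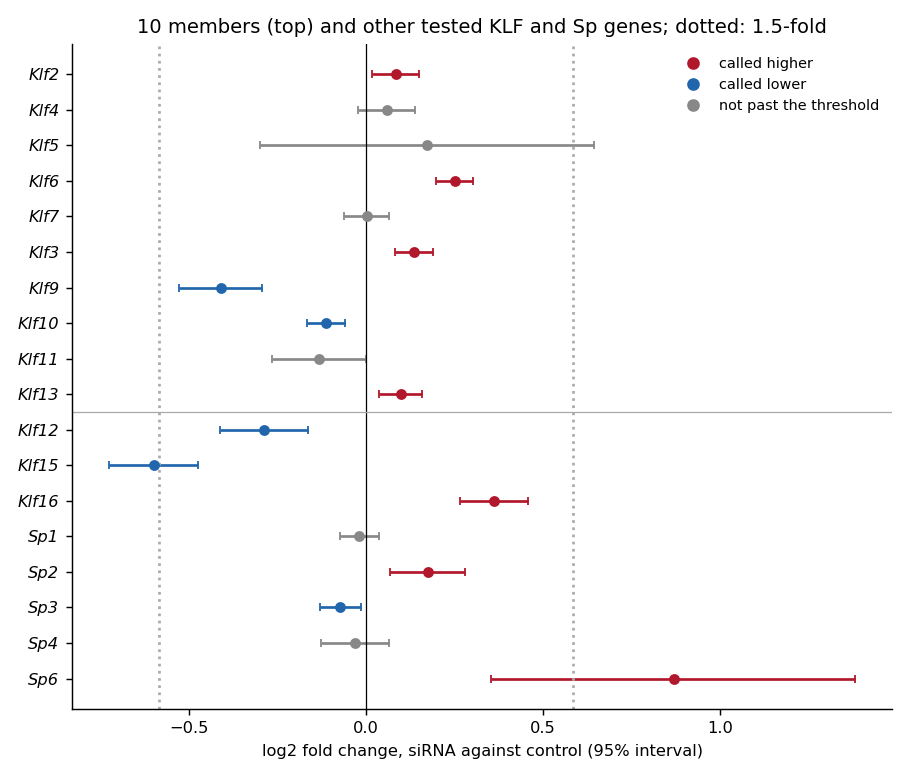
Log2 fold change of siRNA against control with its 95% interval (x axis) for the 10 KLF genes (above the line) and the other tested KLF and Sp genes (below it); colours give the edgeR call and dotted lines mark 1.5-fold. The intervals of Klf6 and Klf9 lie farthest from 0 among the 10 genes, between 0.20 and 0.30 and between −0.53 and −0.29.

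Per transcript length the family was led by Klf6 in both groups. On the scale of CPM per kilobase of the principal annotated transcript, Klf6 stood at 134 ± 5.42 in control and 159.8 ± 3.91 in siRNA cells (SD, n = 5). In control cells Klf9 (54.3 ± 4.03), Klf10 (51.4 ± 1.55) and Klf2 (47.4 ± 1.99) followed, and the ranges of neighbours among these 3 overlapped. Klf3 (36.4 ± 0.875), Klf4 (28.2 ± 1.49), Klf13 (19.4 ± 0.697), Klf7 (12.7 ± 0.650), Klf11 (3.996 ± 0.127) and Klf5 (0.346 ± 0.173) came next in that order, with no overlap between neighbours. With the longest annotated transcript as the length, Klf3 stood at 23.7 and came after Klf4.

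In siRNA cells the order after Klf6 was Klf2 (50.3 ± 2.31), Klf10 (47.5 ± 1.02) and Klf9 (40.9 ± 1.84 CPM per kilobase). The ranges of Klf2 and Klf10 overlapped there, as did those of Klf9 and Klf3, while Klf10 was above Klf9 in all libraries. Summed per kilobase, the 10 genes stood at 389 ± 12.8 in control and 405.5 ± 5.96 in siRNA cells. The share of that sum from Klf6 was 34.6% ± 0.708 in control and 39.4% ± 0.975 in siRNA cells, and that from Klf9 was 14.0% ± 0.623 and 10.1% ± 0.332 (SD, n = 5). These shares are a description and carry no test.

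**Figure D4:**
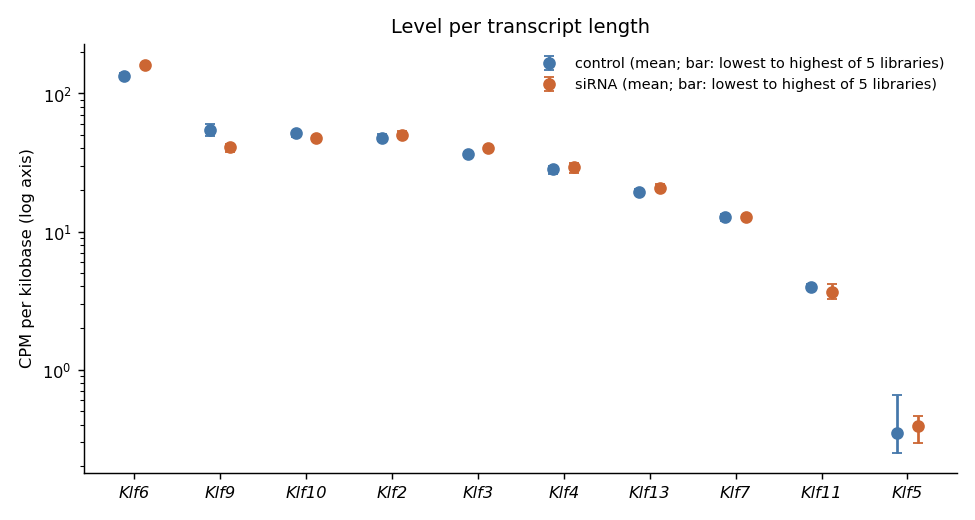
Level of the 10 KLF genes in CPM per kilobase of transcript (y axis, log scale), ordered by control level; points are group means and bars run from the lowest to the highest of 5 libraries. Klf6 is the highest in both groups, and Klf9 moves from rank 2 in control to rank 4 in siRNA cells.

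The other KLF and Sp genes, which share the zinc finger type, were written as a list of 16. Of the 13 with a row, 8 were tested, and 3 rose, 3 fell and 2 did not pass (75.0% called, against 71.3% of all tested genes; median log2 fold change −0.02). Klf15, a glucocorticoid-induced factor of metabolic tissues, stood at 22.7 ± 1.71 CPM in control and fell to 15.0 ± 1.48 CPM (SD, n = 5), or by 0.60 on the log2 scale (SE 0.062; edgeR adjusted p = 3.21e-11). Its 5 siRNA libraries were all below its controls, as they were for Klf12, the relative of Klf3, which fell by 0.29 on the log2 scale and whose reads were divided between genes in all 10 libraries. Klf16, of the Sin3A-recruiting branch, rose by 0.36 without overlap. Members of each corepressor branch thus moved both ways, Klf3 up and Klf12 down in the first, and Klf13 and Klf16 up and Klf9 and Klf10 down in the second.

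Of the 5 tested Sp genes, 2 rose, 1 fell and 2 did not pass, while 71.3% of all tested genes were called, 36.1% higher and 35.2% lower. Sp1, a general activator at GC boxes, had a mean of 199.7 ± 7.77 CPM in control and of 197 ± 6.58 CPM after the siRNA (SD, n = 5; 95% interval of the log2 fold change −0.07 to 0.04, edgeR adjusted p = 0.553), and Sp4 did not pass either (adjusted p = 0.573). Sp3 fell by 0.07 on the log2 scale, a call lost without control replicate 1 (adjusted p = 0.0979), siRNA replicate 3 (0.057) or siRNA replicate 4 (0.101), and Sp2 rose by 0.17. Sp6 rose by 0.87 from 0.569 CPM, with 86.7% of its exon bases also inside an opposite-strand gene. Klf1, the erythroid factor, had 12 counts in all control libraries together and 16 in all siRNA libraries, and Klf8, Klf17, Sp7 and Sp9 had at most 8 counts over either group. These 5 were under the filter, and Klf14, Sp5 and Sp8 had no row under those symbols.

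Several genes of the route that induces Klf2 and Klf4, and of its inhibitors, fell, while the pair itself changed little. The list holds both kinds, so its counts and median do not measure the activity of the route. Of 17 tested genes of the MEK5, ERK5, MEF2 and cerebral cavernous malformation (CCM) list, 4 rose, 9 fell and 4 did not pass (76.5% called, against 71.3% of all tested genes, and 52.9% lower, against 35.2%). Their median log2 fold change was −0.20, against −0.00189 over all tested genes. Without a filter on low counts Mef2b enters the list as well, and the median was −0.13. The MEF2 genes Mef2c (−0.52), Mef2d (−0.46) and Mef2a (−0.32) all fell, and Mef2c went from 234 ± 6.75 to 163 ± 3.49 CPM (SD, n = 5). The class II deacetylase genes Hdac5 (−0.76) and Hdac7 (−0.48), whose products bind and restrain MEF2, fell as well. Mapk7, which encodes ERK5, had a log2 fold change of 0.05 (95% interval −0.03 to 0.13, edgeR adjusted p = 0.259), and 0.10 without control replicate 2 (adjusted p = 0.0204). Ccm2, a component of the complex that restrains MEKK3 signalling to KLF2 and KLF4, rose by 0.58.

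Values follow for genes known to be raised or lowered by KLF2 and KLF4 in endothelium; the 2 factors themselves stayed within 1.11-fold by their intervals. Of 15 tested genes of the induced list, 4 rose, 9 fell and 2 did not pass (86.7% called, against 71.3% of all tested genes, and 60.0% lower, against 35.2%). Their median log2 fold change was −0.38. Without a filter on low counts Ptgds enters the list as well, and the median was −0.44. Thbd, which encodes the anticoagulant thrombomodulin, fell from 91.3 ± 1.57 to 63.7 ± 3.17 CPM (SD, n = 5), the plasminogen activator gene Plat by 0.56, the angiopoietin receptor gene Tek by 0.32 and the nitric oxide synthase gene Nos3 by 0.38 on the log2 scale. The protease gene Adamts4 went the other way, from 105 ± 6.59 to 172 ± 5.79 CPM. Exons of Nos3 share 32.3% of their bases with other genes on the opposite strand, and reads of Adamts4 were divided between genes in all 10 libraries.

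Of 9 tested genes of the repressed list, 5 rose, 2 fell and 2 did not pass (77.8% called, near the 71.3% of all tested genes, and 55.6% higher, against 36.1%). Their median log2 fold change was 0.34. Other settings keep other genes of the list, so their medians are not over these 9. With F3 and Il6 entering, the median was 1.04 without a filter on low counts and 1.06 in DESeq2. With scarce genes left out, at a mean of at least 5 CPM, it was 1.24. The leukocyte adhesion gene Sele rose from 14.0 ± 1.28 to 38.4 ± 3.11 CPM and the angiopoietin gene Angpt2 from 417 ± 21.0 to 1075 ± 56.6 CPM (SD, n = 5). Vcam1 (−0.38) and Ace (−0.92) fell. The part of Klf2 and Klf4 in these values was not tested.

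Partners that carry out or end KLF action were called about as often as genes in general. Of 16 tested cofactor and degradation genes, 8 rose, 3 fell and 5 did not pass (68.8% called, against 71.3% of all tested genes). By direction, 50.0% were higher and 18.8% lower, against 36.1% and 35.2% of all tested genes, with a median log2 fold change of 0.08. Fhl2, a LIM domain cofactor, rose from 14.2 ± 0.838 to 49.6 ± 2.997 CPM (SD, n = 5), and the deacetylase genes Hdac2 (0.50) and Hdac3 (0.38) rose. Of the ubiquitin ligase genes, Wwp1, whose product marks KLF2 and KLF5 for degradation, fell by 0.26, and Fbxw7, a substrate adaptor for KLF2 and KLF5, rose by 0.26 with reads divided between genes in all 10 libraries. Protein levels of the KLF factors are not part of these data.

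Signals that are known to raise single KLF genes gave the following values. Of 21 tested TGF-beta pathway genes, a route to Klf10 and Klf11, 5 rose, 13 fell and 3 did not pass (85.7% called, against 71.3% of all tested genes, and 61.9% lower, against 35.2%; median log2 fold change −0.20). Those that fell include the ligand gene Tgfb3 (−1.29; 12.4% of exon bases shared with opposite-strand genes), the endothelial receptor gene Acvrl1 (−0.82) and the target genes Id2 (−1.27) and Pmepa1 (−0.97). Smad7, a feedback inhibitor, fell by 0.27 from 3.92 CPM, a call lost in DESeq2 (edgeR's adjusted p of 0.0326 became 0.108), without a filter on low counts (0.0629) and without any of control replicates 1 (0.0538), 2 (0.0514) and 5 (0.0873) or siRNA replicates 1 (0.0746) and 3 (0.0555). Klf10 fell by 7.56%, and Klf11 did not pass (edgeR adjusted p = 0.0661). The part of the TGF-beta pathway in the values of Klf10 and Klf11 was not tested.

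Of 13 tested genes of the glucocorticoid receptor and its targets, a route to Klf9 and Klf15, 4 rose, 8 fell and 1 did not pass (92.3% called, against 71.3% of all tested genes, and 61.5% lower, against 35.2%). Their median log2 fold change was −0.21. Tsc22d3, which encodes the glucocorticoid-induced leucine zipper, fell from 179.5 ± 10.35 to 117 ± 4.77 CPM (SD, n = 5), Fkbp5, a receptor co-chaperone, by 0.21 and Ddit4 by 1.03 on the log2 scale. Dusp1, which is on this list and on that of the immediate early genes, rose by 0.41. The metallothionein genes Mt1 (1.17) and Mt2 (2.59) rose, and exons of Mt2 overlap an opposite-strand gene over 73.5% of their bases. Metallothioneins and Ddit4 also respond to metals, stress and nutrients. The part of glucocorticoid signalling in the values of Klf9 and Klf15 was not tested.

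Immediate early genes, the class to which Klf2, Klf4, Klf6 and Klf10 belong in stimulated cells, mostly rose. Among the 18 tested, 13 were higher, 1 was lower and 4 missed the threshold (77.8% called, against 71.3% of all tested genes, and 72.2% higher, against 36.1%; median log2 fold change 0.35). Egr1 rose from 54.1 ± 1.68 to 150.0 ± 6.40 CPM (SD, n = 5), Myc by 0.48, Dusp1 by 0.41 and Fosl1, whose reads were divided between genes and whose exons share 57.2% of their bases with opposite-strand Ccdc85b, by 3.11 on the log2 scale. The 4 KLF genes of that class ranged from a log2 fold change of −0.11 for Klf10 to 0.25 for Klf6.

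Growth control genes known as targets of KLF4 and KLF6 numbered 10. Of these, 3 rose, 5 fell and 2 did not pass (80.0% called, near the 71.3% of all tested genes; 30.0% higher and 50.0% lower, against 36.1% and 35.2%; median log2 fold change −0.21). Cdkn1a, the p21 inhibitor gene that both factors can activate, rose from 51.5 ± 1.23 to 59.4 ± 0.763 CPM (SD, n = 5; log2 fold change 0.21, edgeR adjusted p = 7.75e-07). The inhibitor gene Cdkn2b rose from 62.5 ± 4.66 to 149 ± 4.92 CPM, whereas Cdkn1b (−0.71) and the cyclin genes Ccnd2 (−0.88) and Ccnd1 (−0.35) fell, the last with 23.4% of its exon bases shared with an opposite-strand gene and its reads divided between genes. All 15 lymphatic and valve genes passed, 13 lower and 2 higher (86.7% lower, against 35.2% of all tested genes, of which 71.3% were called; median −0.51), with Itga9 (−1.07), Flt4 (−1.06), Nrp2 (−0.89), the connexin gene Gja1 (−0.50) and Prox1 (−0.26) among those that fell.

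**Figure D5:**
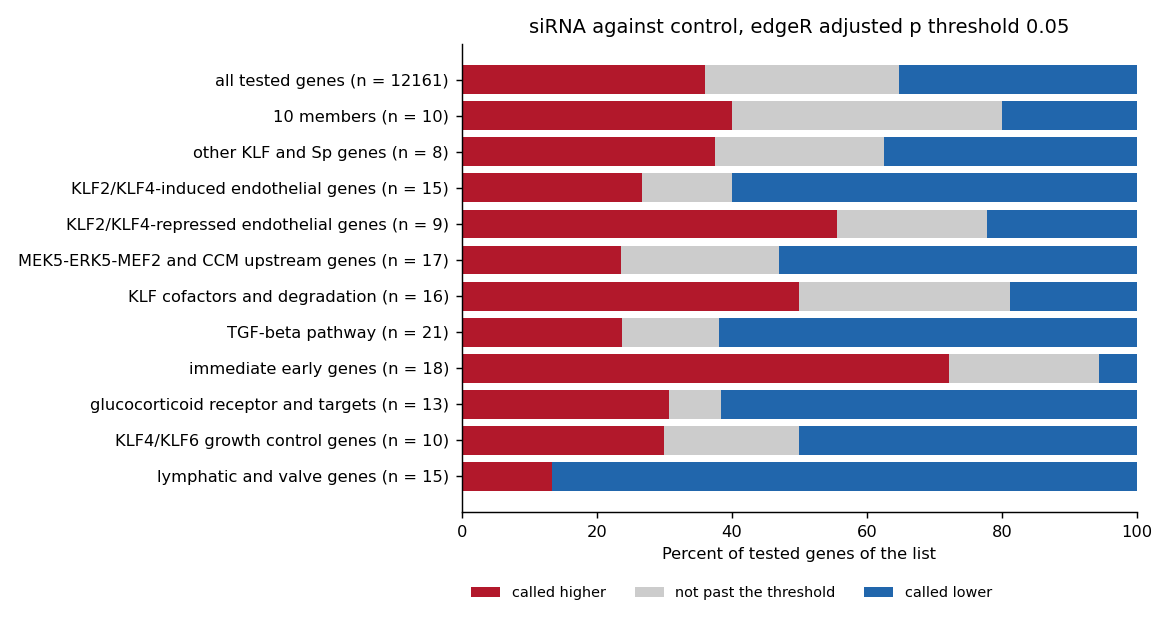
Percent of the tested genes of each list (x axis) called higher, called lower or not past the threshold in siRNA against control libraries, with all tested genes in the top bar. The 10 KLF genes have 40.0% higher and 20% lower, and immediate early genes have 72.2% higher.

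Between libraries of a group, KLF genes varied by a few percent. The coefficient of variation of the 8 members above 20 CPM ran from 2.4% (Klf3) to 7.42% (Klf9) in control and from 1.68% (Klf3) to 6.07% (Klf4) in siRNA libraries. The genes whose deviations from the group means were most like those of Klf2 over the 10 libraries were Actr5 (Pearson r = 0.962), Smg5 (0.955) and Cln6 (0.947), and for Klf4 Txlng (0.966), Zfp963 (0.959) and Hadhb (0.941), picked from 10324 genes. These are the highest of very many coefficients over few libraries that share a scaling, and are given as a description.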

How the data were processed

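Oligo(dT)-selected RNA of 10 LEC samples was sequenced by the submitters. The deposited table holds estimated counts per gene and library, not normalized and partly fractional. The submitters' processing notes list HISAT2 2.2.1, Bowtie2 2.4.5, RSEM 1.3.1 and GRCm38.p6; the role of each, the annotation and the strand setting are not given here by any source. Columns and groups came from the labels.

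Expected counts were rounded and tested in edgeR 4.0.16 (R 4.3.3) with TMM factors, filterByExpr (minimum count 10), robust quasi-likelihood dispersions, group as the factor, and Benjamini-Hochberg adjustment over 12161 genes. The method was checked on simulated data with the same dispersion for all genes. That check required recovery only at folds of 1.5 or more, so it does not cover changes as small as those of the KLF genes. Libraries of a group were less alike than counting error allows (chi-square over its degrees of freedom, 1.498 to 3.466), so none was taken for a duplicate deposit of another; whether they share a culture is not known from this. CPM uses TMM-scaled library sizes. Lengths and exon overlaps are from GENCODE M21 (GRCm38), with the mean of the principal transcripts as length. Coordinates and promoters are from RefSeq (16202 of 16251 gene IDs matched; 8 of 10 members had a promoter window).

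The members, gene lists and named genes were chosen with earlier results of these data known, so the lists give no independent support. Named are the members, Kdr, other KLF and Sp genes, in every list the 4 lowest adjusted p-values at most, 18 further genes given by name, and cell markers. Any other name was chosen after its values were seen. Some genes under this rule are not reported here. Alternatives were limma-voom (limma 3.58.1), DESeq2 1.42.0, RLE or upper-quartile factors, other filters, the replicate number as a block, glmTreat and each library left out.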

Additional observations from a re-analysis of the deposited data

Results flagged for a closer look

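Of the named tested genes in each group of 5 libraries, 9 values lay far from the rest of their group, by a gap above 0.71 of the whole range; chance flags about 1 in 20 groups, and 130 were examined. Among the KLF genes this was Klf5 in control replicate 5, at 2.187 CPM against 0.8282 to 1.056 CPM in the other control libraries. Myc was low in control replicate 5 (64.21 CPM against 71.48 to 74.43) and high in siRNA replicate 5 (104.3 CPM against 98.25 to 99.66). In siRNA replicate 5, Cdkn1b (75.89 CPM against 81.89 to 84.22), Itga9 (27.46 CPM against 31.72 to 32.8) and Prox1 (384.2 CPM against 406.4 to 414.0) were also low. Ccnd1 was low in siRNA replicate 1 (132.2 CPM against 143.7 to 147.0), Hdac5 high in control replicate 2 (37.75 CPM against 35.01 to 35.44) and Mef2d low in control replicate 3 (88.03 CPM against 95.63 to 98.19). Of the 10 KLF genes, 5 had their lowest siRNA value in siRNA replicate 5: Klf3 (132.4 CPM), Klf4 (80.3), Klf9 (170.1), Klf10 (140.3) and Klf13 (125.5).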

How the results depend on the processing

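Across the alternatives that test for any change, 3 to 5 of the 10 KLF genes were called higher and 2 to 3 lower. Klf6, Klf3, Klf13, Klf9 and Klf10 kept direction and call in all 17 of these, with log2 fold changes from 0.23 to 0.27, 0.12 to 0.15, 0.08 to 0.12, −0.44 to −0.37 and −0.13 to −0.10. Klf2 was called in 12 of 17, Klf11 in 3, Klf4 in 1, and Klf5 in 1 of 16. Against a fold of 1.5, the calls went to 0 higher and 0 lower among the 10 genes, and to 447 higher and 594 lower among all tested genes, because that test asks for a larger change. Klf7 changed sign around 0 with RLE factors (−0.000157), upper-quartile factors (−0.0141) and a mean of at least 5 CPM (−0.00589), and with single libraries omitted it lay between −0.0179 and 0.0235. Sp1 became 0.0034 without control replicate 5 and otherwise lay as low as −0.0343 with single libraries omitted. When single libraries were left out, Kdr ran from −2.86 to −2.80. No scaling moved the median of all tested genes by more than 0.0163 on the log2 scale. The same-numbered control and siRNA libraries did not deviate together (correlations from −0.195 to −0.0201), so the numbers were not taken to pair them; with the replicate number as a block 4 of the 10 KLF genes were called higher and 2 lower, with 4322 and 4215 of all tested genes. Depth limits Klf5, Klf1, Klf8 and Klf17, which rest on few counts.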
